A study of Homo sapiens with 31 samples.

Results

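The 38 genes described here act in the G2 phase of the cell cycle and in mitosis. They were taken by name from a fixed list of cyclins, mitotic kinases, spindle checkpoint genes, kinetochore and spindle genes, and proliferation markers. All 38 were found among the 58037 gene identifiers of the steady-state tables and the 43682 genes of the actinomycin D tables. All 38 also passed the filter on low counts in both sets, which left 17240 and 17715 genes to test. By its sample labels the study used PANC-1, a long-established line of human pancreatic cancer cells. It asked how KHSRP, which binds RNA and speeds the decay of AU-rich transcripts, affects gene expression and the lifetime of mRNAs. Of its 31 samples, 26 RNA-seq libraries were analysed here, and the 5 crosslinking samples were not analysed here. The steady-state set compared cells labelled KHSRP knockout (KO) with cells labelled NC and of wild-type genotype, with 3 libraries each and no treatment named. The actinomycin D set held libraries labelled KO and NC with the same genotype labels, 2 each at labelled times of 0, 2, 4, 6 and 8 h under actinomycin D, a blocker of transcription. The labels do not say whether the knockout line is 1 clone, nor whether replicates came from separate cultures. The spread behind each p-value is that between libraries and may be technical.

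Cells build a wave of transcripts as they approach mitosis. Cyclins A and B activate CDK1, and CDC25 phosphatases and the kinases PLK1, AURKA and AURKB push the cell into division and through it. The spindle checkpoint holds the anaphase-promoting complex until every kinetochore is attached, and motors and bundling proteins then pull the chromosomes apart and split the cell. Many of these genes share promoter elements: a CHR element (cell cycle genes homology region), which the DREAM, B-MYB and FOXM1 complexes use, and CCAAT boxes, which NF-Y binds.

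The promoters were read from RefSeq (GRCh38.p14), as the 250 bases before each gene's start, to show whether members that moved in opposite directions carry the same elements. Of the 38 members, 31 matched an entry by symbol. The letters searched were TTTGAA and TTTAAA, the usual forms of the CHR, and CCAAT, on both strands and with overlapping matches kept. TTTGAA or TTTAAA was found for 24 of 31 members, in 65.9% of the 41 member entries and in 21.9% of all 35116 promoters. CCAAT was found for 27 of 31 members, in 78.0% of member entries and in 32.0% of all promoters. In the sequences below, capitals mark these letters on either strand, where ATTGG is CCAAT read from the other strand. AURKB (1 of its 2 overlapping entries) and PLK1 rose in the steady state, and CENPF and MKI67 fell.
AURKB, chr17:8210226-8210475, minus strand: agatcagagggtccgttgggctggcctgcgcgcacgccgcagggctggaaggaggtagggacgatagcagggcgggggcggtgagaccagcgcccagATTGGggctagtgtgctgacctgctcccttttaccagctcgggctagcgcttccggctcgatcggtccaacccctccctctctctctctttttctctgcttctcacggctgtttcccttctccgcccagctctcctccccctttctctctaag
PLK1, chr16:23678639-23678888, plus strand: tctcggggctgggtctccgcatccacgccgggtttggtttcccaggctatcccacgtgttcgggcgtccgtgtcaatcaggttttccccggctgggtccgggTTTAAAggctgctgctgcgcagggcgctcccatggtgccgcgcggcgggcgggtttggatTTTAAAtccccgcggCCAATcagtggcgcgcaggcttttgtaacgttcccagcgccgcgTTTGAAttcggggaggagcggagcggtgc
CENPF, chr1:214602945-214603194, plus strand: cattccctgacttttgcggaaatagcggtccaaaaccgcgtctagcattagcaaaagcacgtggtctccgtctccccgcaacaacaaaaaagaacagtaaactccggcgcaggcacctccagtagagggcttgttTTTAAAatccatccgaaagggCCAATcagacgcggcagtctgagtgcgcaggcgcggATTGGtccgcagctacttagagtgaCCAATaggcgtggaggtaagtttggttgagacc
MKI67, chr10:128126424-128126673, minus strand: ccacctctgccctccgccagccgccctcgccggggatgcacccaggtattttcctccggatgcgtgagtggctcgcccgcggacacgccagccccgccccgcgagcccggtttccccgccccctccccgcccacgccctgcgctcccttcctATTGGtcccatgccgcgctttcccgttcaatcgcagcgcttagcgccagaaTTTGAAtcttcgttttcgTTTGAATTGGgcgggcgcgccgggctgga
A CHR match lay in the window of 10 of the 14 matched members that were higher in the steady state, of 7 of the 7 that were lower, and of 7 of the 10 that were not called. CCAAT lay in 13 of 14, 6 of 7 and 8 of 10. Both members that rose and members that fell held these letters. Of the genes printed, AURKB held CCAAT but no CHR match in either entry, and PLK1, CENPF and MKI67 held both. A match is a description of these windows and not a measured site.

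Steady-state libraries held 33706230 to 43278181 counts, and those of the actinomycin D set 19177934 to 25768060. KHSRP stood at 9.68 to 10.98 CPM (counts relative to the library total, unscaled) in the steady-state KO libraries and at 62.5 to 63.6 in NC. In the actinomycin D set it stood at 134 to 164 CPM in the 10 libraries labelled KO and at 406 to 434 in the 10 labelled NC. KHSRP was therefore lower in the libraries labelled KO in both sets, but absent from none of them. CDKN2A, a tumour suppressor gene that PANC-1 cells are known to lack, had 2728 to 5476 counts in each actinomycin D library labelled NC, 0 in each labelled KO and 0 to 6 across the steady-state libraries. Of the ductal epithelium markers, KRT19 stood at 372 to 415 CPM in the actinomycin D libraries labelled KO and at 0 to 0.672 in those labelled NC, and KRT7 at 8.61 to 19.1 and 541 to 961. SOX9 (16.7 to 134 and 0.0791 to 3.18), EPCAM and CDH1 also lay apart by label, while KRT8, KRT18 and MUC1 overlapped. In the steady-state libraries of both genotypes KRT19 stood at 301 to 354 CPM and KRT7 at 3.43 to 5.39. Differences between KO and NC in the actinomycin D set are therefore differences between libraries so labelled, and the part of KHSRP in them cannot be told apart from the other differences. All 8 ductal markers reached 1 CPM in the steady-state libraries and in the actinomycin D libraries labelled KO, and 6 did in those labelled NC. INS, GCG, AMY2A and PNLIP, which mark endocrine and acinar cells, were at 0 in every library of both sets. Of the endothelial markers, KDR stood at 7.17 to 10.7 CPM in the actinomycin D libraries labelled KO and 0 in those labelled NC. CDH5 went the other way, at 0 to 0.184 and 1.64 to 3.95. Of the fibroblast markers, PDGFRB stood at 0 to 0.505 CPM in KO and 18.1 to 26.5 in NC. COL1A1 (24.6 to 51.5 and 6.64 to 10.95) and COL3A1 (7.29 to 10.26 and 0.583 to 1.59) went the other way. PECAM1, VWF, COL1A2, DCN and LUM stayed under 1 CPM in every library of that set. The 5 immune markers summed to 113 to 249 CPM in the actinomycin D libraries labelled KO and to 10.04 to 14.4 in those labelled NC, nearly all of it from 1 gene, CD68, at 111 to 247 and 9.95 to 13.8 CPM. MS4A1 was at 0 in all 20 libraries, PTPRC at 0 in those labelled KO and CD3E in those labelled NC. Their part in the results of that set was not tested.

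At steady state the members divided. AURKB, AURKA and PLK1, the 4 cyclins, both CDC25 phosphatases and the 3 genes of anaphase onset were higher in KO, AURKB most of all. A group of large structural and motor genes was lower, led by CENPF and MKI67. The spindle checkpoint genes, NEK2 and CDK1 did not pass the test in either direction. In numbers, 19 of the 38 members were higher (24.4% of all tested genes were higher), 7 were lower (26.3% of all tested genes) and 12 were not called, by edgeR's quasi-likelihood test with Benjamini-Hochberg adjustment at 0.05. The same 26 members had KO libraries that did not overlap the NC libraries, 19 above and 7 below, where 60% of all tested genes did not overlap. The members' median log2 change was 0.18, beside 0.02 over all genes. It was 0.05 (all genes 0.03) without KO replicate 1, 0.28 without KO replicate 2, 0.29 with length-adjusted offsets, and 0.06 with counts scaled to ribosomal protein genes. In bulk RNA a different share of cells in G2 or mitosis and a different amount of RNA per cell cannot be told apart.

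**Figure D1:**
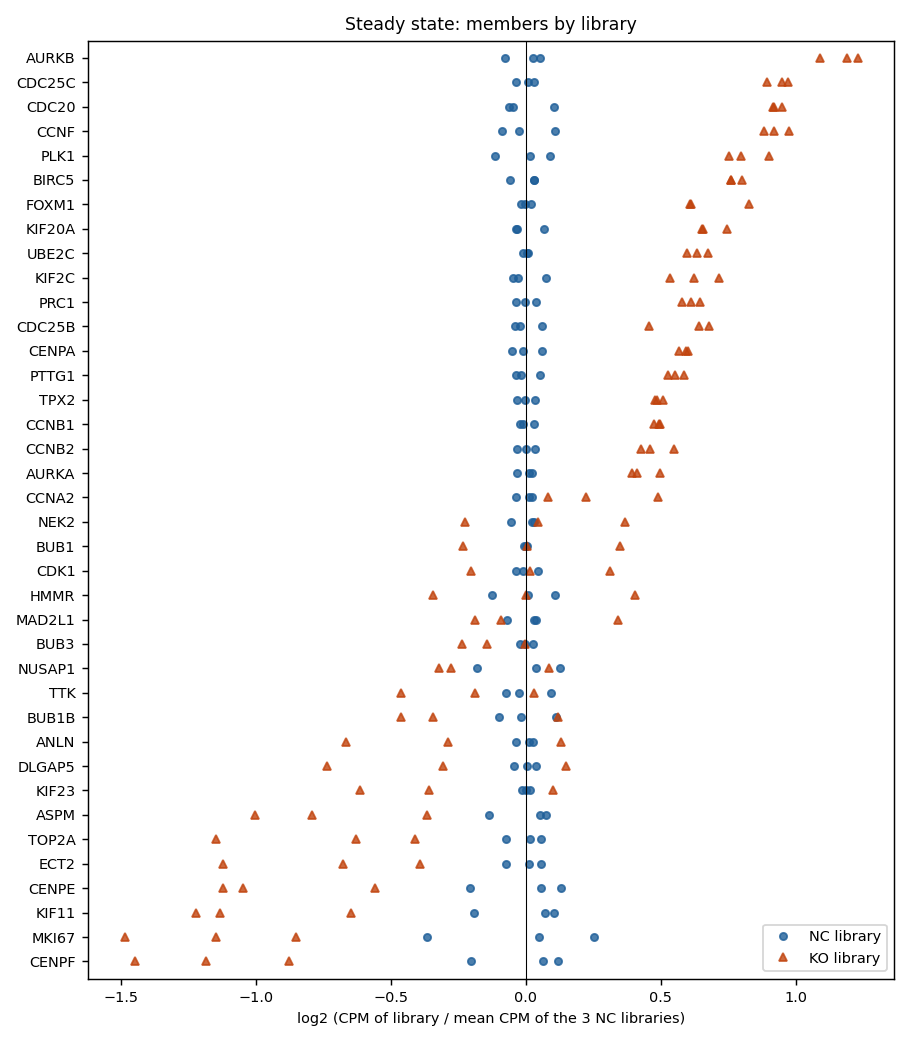
Each row is 1 member, and the horizontal axis is the log2 ratio of each library's CPM to the mean of the 3 NC libraries (circles NC, triangles KO). The 3 KO libraries of the top 19 members lie to the right of every NC library, those of the bottom 7 lie to the left, and those of the 12 between overlap NC or lie on both sides of it.

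AURKB encodes Aurora B, the kinase of the chromosomal passenger complex. It lies at hg19 chromosome 17, 8108049 to 8113893, on the minus strand. Its levels, as CPM after TMM scaling here and below, were 63.2, 67.8 and 69.7 in KO and 30.2, 30.8 and 28.1 in NC. The lowest KO library stood above the highest NC library by far more than either group's spread. The log2 change was 1.17 (SE 0.08, adjusted p = 2.14e-05). PLK1 encodes Polo-like kinase 1, which acts from mitotic entry to cytokinesis. It stood at 65.6, 70.6 and 63.7 CPM in KO and 34.9, 40.3 and 38.3 in NC, a log2 change of 0.82 (SE 0.09, adjusted p = 8.32e-05) with no overlap. AURKA, the centrosomal Aurora kinase, changed less, by 0.43 (SE 0.07). NEK2, a kinase of centrosome separation, had KO libraries from 54.1 to 81.5 CPM that lay on both sides of the NC libraries at 60.9 to 64.6, and it was not called (0.08, adjusted p = 0.627).

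Of the cyclins, CDK1 and the CDC25 phosphatases, a group made after the values were seen, 6 of 7 were higher. Over all tested genes 24.4% were higher. The 6 include CCNA2, whose call was lost in several alternatives. CDC25C, a phosphatase that activates CDK1, stood at 65.7, 63.2 and 66.6 CPM in KO and 34.7, 33.1 and 34.2 in NC (log2 change 0.94, SE 0.07, adjusted p = 2.65e-05). CCNF, an F-box cyclin of a ubiquitin ligase, stood at 76.8, 79.6 and 74.8 CPM in KO and 38.1, 43.7 and 39.8 in NC (0.93, SE 0.08, adjusted p = 4.00e-05). In both genes KO libraries lay within a narrow band well above NC. CCNB1, cyclin B1, the partner of CDK1 at mitotic entry, stood at 341, 337 and 342 CPM in KO and 248, 240 and 239 in NC (0.49, SE 0.06, adjusted p = 0.000253). CCNB2 (0.48) and CDC25B (0.59) rose by similar amounts.

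CCNA2, cyclin A2, gave the weakest rise of the group. It stood at 163, 123 and 135 CPM in KO and 118, 113 and 117 in NC, and its log2 change was 0.28 (SE 0.10, adjusted p = 0.0469). The second KO library lay only just above the highest NC library. This call was lost with DESeq2 (0.26), with counts scaled to ribosomal protein genes (0.16), with exon-length offsets (0.20) and without KO replicate 3 or any 1 of the NC libraries (0.25 to 0.31). CDK1 itself, the kinase that these genes regulate, stood at 262, 183 and 213 CPM in KO and 209, 206 and 218 in NC. KO replicate 1 lay above all NC libraries and replicate 2 below all, so the groups overlapped (log2 change 0.06, SE 0.12, adjusted p = 0.708).

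All 3 genes of anaphase onset were higher, beside 24.4% of all tested genes. CDC20, the activator of the anaphase-promoting complex, stood at 317, 309 and 310 CPM in KO and 158, 176 and 157 in NC (log2 change 0.93, SE 0.07, adjusted p = 2.84e-05). The groups were far apart. UBE2C, the complex's ubiquitin-conjugating enzyme, rose by 0.64 (SE 0.07), and PTTG1, the securin that restrains separase, by 0.56 (SE 0.07). FOXM1, the transcription factor that drives many of these genes, was a low transcript in this set, at 17.2, 20.1 and 17.3 CPM in KO and 11.5, 11.3 and 11.2 in NC, and was higher (0.69, SE 0.09, adjusted p = 0.000326). Of the 5 spindle checkpoint genes 0 were called in either direction by edgeR, with 0 at an unadjusted p under 0.05, and 0 by DESeq2. These were BUB1 (0.06), BUB1B (-0.21), BUB3 (-0.12), MAD2L1 (0.04) and TTK (-0.19), which encode kinases and signalling proteins of the unattached kinetochore. Over all tested genes 8513 of 17240 were not called. Without KO replicate 1, BUB1B, BUB3 and TTK were called lower. The groups by role were made after the values were seen, so the contrast between them is a description.

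The 7 lower members were genes of the kinetochore, the spindle, the cleavage furrow and chromosome structure. CENPF, a large kinetochore and microtubule-binding protein gene at hg19 chromosome 1, 214776538 to 214837914, plus strand, stood at 92.2, 62.0 and 74.5 CPM in KO and 177, 147 and 184 in NC. Every KO library lay below every NC library, although each group spread more widely than for AURKB. The log2 change was -1.15 (SE 0.14, adjusted p = 0.00019). MKI67, the gene of the proliferation marker Ki-67, which coats mitotic chromosomes, stood at 50.4, 41.0 and 32.4 CPM in KO and 93.9, 70.5 and 108 in NC (-1.14, SE 0.18, adjusted p = 0.000719). Its NC libraries spread widely, and none reached down to KO. KIF11, the motor that separates spindle poles, stood at 61.6, 41.4 and 44.1 CPM in KO and 104, 84.5 and 102 in NC (-0.98, SE 0.15, adjusted p = 0.000571).

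CENPE, the kinetochore motor, stood at 24.8, 16.8 and 17.7 CPM in KO and 40.0, 31.7 and 37.9 in NC (log2 change -0.89, SE 0.15, adjusted p = 0.00103). TOP2A, the topoisomerase that untangles sister chromatids, stood at 429, 257 and 369 CPM in KO and 593, 543 and 577 in NC (-0.70, SE 0.15, adjusted p = 0.00403). KO replicate 1 was the KO library nearest to NC in both. ECT2, the exchange factor that places the cleavage furrow (-0.70, SE 0.15), and ASPM, a spindle pole protein gene (-0.70, SE 0.14), were also lower. The third centromere gene, CENPA, the centromeric histone H3, went the other way and rose by 0.59 (SE 0.07).

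Among the other spindle genes KIF20A (0.69), KIF2C (0.63), PRC1 (0.61) and TPX2 (0.49) rose, and KIF23 (-0.26), DLGAP5 (-0.25), NUSAP1 (-0.16) and HMMR (0.05) were not called. KIF20A and PRC1 act in the central spindle, KIF2C depolymerises microtubules and TPX2 activates Aurora A. BIRC5, survivin, the partner of Aurora B in the passenger complex, rose by 0.77 (SE 0.07). ANLN, the actin scaffold of the furrow, was not called (-0.24). KO replicate 1 held more of the uncalled members than replicates 2 and 3: ANLN stood at 641, 369 and 480 CPM in KO and 596, 571 and 590 in NC. Without KO replicate 1, 19 members were higher and 14 lower (29.1% of all tested genes were then lower), the added 7 being BUB1B, BUB3, TTK, KIF23, ANLN, NUSAP1 and DLGAP5. With counts scaled to ribosomal protein genes 18 members were higher and 7 lower, while the split over all genes moved from 4199 higher of 8727 called to 2574 of 7585, with a median shift of -0.10 over all genes.

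Levels of different members can be set against each other only per length. In TPM, a level per length that the authors deposited, the NC libraries held most PTTG1 (158 ± 8.36, SD, n = 3), followed by TOP2A (72.8 ± 6.48), ECT2 (59.0 ± 0.972) and CCNB1 (55.8 ± 2.54). The spread of PTTG1 did not reach TOP2A, and the spreads of ECT2 and CCNB1 overlapped. At the low end stood CCNF (3.47 ± 0.336), CENPE (2.15 ± 0.275) and FOXM1 (1.46 ± 0.0681). AURKB stood at 11.3 ± 0.703 TPM in NC and CENPF at 15.0 ± 0.424, so that in TPM CENPF was above AURKB by more than either spread. The order of all these members depends on the length used, which the spreads do not cover. CENPF had a transcript length of 3849 bases in this set but 10290 by the exons listed in the actinomycin D tables. The order by that second length was not tested.

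The division of the members went with transcript length. The 7 lower members had mean transcript lengths of 2839 to 7747 bases, and the 19 higher ones 755 to 4149 (PTTG1 to CCNF), as the steady-state tables give them, averaged over the 6 libraries. That length is weighted by the isoforms found in each library. By the exon length listed in the actinomycin D tables, the ranges did not overlap: 4841 to 12716 bases (ECT2 to MKI67) for the lower members and 1112 to 4230 (PTTG1 to CCNF) for the higher ones. Among the 12 members not called, listed exon length ran from 2263 to 7703 bases (NUSAP1 to BUB3) and so overlapped both. Over the 38 members the log2 change and transcript length had a Spearman rho of -0.54, and with listed exon length -0.66. Over all 17240 tested genes the rho was -0.24, and over the 14924 with a listed exon length it was -0.28. Genes share libraries and are not replicates, so these are descriptions.

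**Figure D2:**
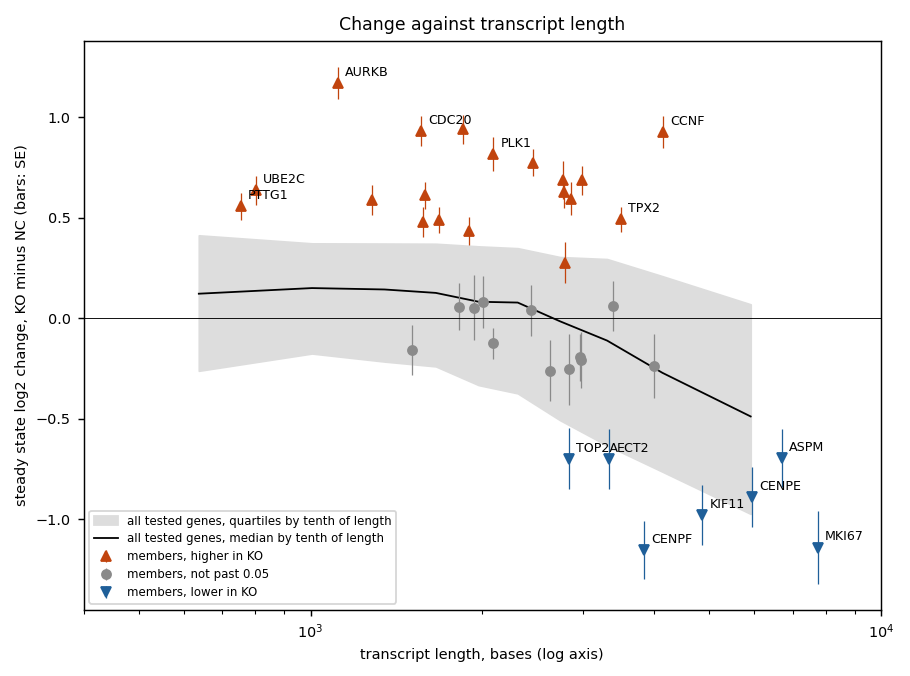
The horizontal axis is transcript length in bases (log axis) and the vertical axis the steady-state log2 change, KO minus NC, with bars of 1 SE. The line and band give the median and quartiles of all tested genes in 10 bins of length, from a median of 0.12 in the shortest to -0.49 in the longest, and AURKB lies above the band and CENPF below it.

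AURKB and CENPF can be placed among genes of their own transcript length. AURKB, at 1117 bases (1468 by listed exons), lay in bin 2 of 10 equal bins of length, 823.4 to 1181 bases, where the median log2 change was 0.15 and the upper quartile 0.37. Only 25 of the 1723 genes of that bin had a higher log2 change than its 1.17. CENPF, at 3849 bases (10290 by listed exons), lay in bin 9, 3672 to 4794 bases, where the median was -0.27 and the lower quartile -0.76. In that bin 184 of 1724 genes had a lower log2 change than its -1.15. These places rest on transcript length, and none were made by listed exons, by which CENPF is far longer. In bin 10, the longest, the median was -0.49 and the lower quartile -0.97. Both genes were chosen for their direction, so these places are descriptions.

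The length trend also differed between libraries. In CPM relative to the mean of all 6 libraries, genes of bin 10 (the longest) minus those of bin 1 stood at -0.11, -0.30 and -0.32 on the log2 scale in KO replicates 1, 2 and 3 and at 0.26, 0.19 and 0.30 in NC. The structural RNAs RN7SL1, RN7SL2, RN7SK, RMRP and RPPH1, which lack a poly(A) tail, took 11.4 to 14.2% of counts in KO and 15.4 to 15.8% in NC. The part of the structural RNA in the members' changes was not tested. A fit that removed each library's trend with length gave the values that follow. AURKB was 1.07 and CENPF -0.93, both still past the threshold (adjusted p = 5.66e-06 and 7.70e-05). MKI67 stood at -0.57, CENPE at -0.45 and KIF11 at -0.64, and all 3 stayed past it. ASPM, at -0.20 (adjusted p = 0.128), lost its call, which left 19 higher and 6 lower. Over all genes that fit called 8648 of 17240, 4475 of them higher. Offsets from listed exon length gave 1.02 for AURKB and -0.77 for CENPF, with 19 higher and 7 lower. BUB3 was gained as higher and CCNA2 was lost. Over all genes these offsets called 7958 of 14924, 4138 of them higher.

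The fixed list of 79 other mitotic genes also split. At steady state 32 were higher and 23 lower, with a median log2 change of 0.07, beside 24.4% and 26.3% of all tested genes. Its largest rises were MYBL2, which encodes B-MYB (0.99, SE 0.07), and PKMYT1, an inhibitory kinase of CDK1 (0.98, SE 0.08). Its largest falls were CEP55, a cytokinesis gene (-1.38, SE 0.12), and SMC2, a condensin subunit (-1.24, SE 0.14). In the fixed G1/S list 16 of 25 genes were higher and 3 lower, with a median of 0.40.

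In the actinomycin D set the summed level of short-lived transcripts, given below, was far lower at 0 h than at KO 6 h and NC 4 h. The label 0 h is therefore not shown to be an untreated state. The 0 h comparison gave a different picture for many of the same genes. Here CDC25B, AURKA, TTK and KIF2C were the members raised most in the libraries labelled KO, and FOXM1, PLK1, PRC1 and BIRC5 those lowered most. In all, 21 of 38 members were higher (35.5% of all tested genes), 8 were lower (31.6%) and 9 were not called. The median was 0.27, beside 0.06 over all genes. With counts scaled to ribosomal protein genes 31 were higher and 5 lower, and on the authors' deposited molecule scale 34 and 2, where the median of all genes itself moved to 0.50 and 0.90. Over all genes 6287 of 11887 called were higher as tested, 8798 of 12319 with ribosomal protein scaling and 10135 of 12449 on the molecule scale.

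CDC25B, a CDK1-activating phosphatase, stood at 318 and 310 CPM in KO and 113 and 111 in NC at 0 h (log2 change 1.49, SE 0.05, adjusted p = 6.90e-27). AURKA stood at 126 and 123 in KO and 47.2 and 46.7 in NC (1.41, SE 0.07, adjusted p = 3.68e-22). The 2 libraries of each group were close together and the groups far apart. TTK, a checkpoint kinase, stood at 48.7 and 49.0 in KO and 23.5 and 23.7 in NC (1.05, SE 0.10, adjusted p = 1.38e-12). KIF2C stood at 180 and 182 in KO and 86.8 and 91.2 in NC (1.03, SE 0.06, adjusted p = 1.95e-18).

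FOXM1 stood at 119 and 111 CPM in KO and 270 and 267 in NC (log2 change -1.22, SE 0.06, adjusted p = 1.15e-20). PLK1 stood at 56.6 and 52.3 in KO and at 118 in both NC libraries (-1.12, SE 0.07, adjusted p = 8.48e-19). Both had been higher in KO at steady state. PRC1, the microtubule bundler of the central spindle, stood at 316 and 323 in KO and 615 and 624 in NC (-0.96, SE 0.04, adjusted p = 2.50e-24). BIRC5 stood at 191 and 190 in KO and 307 and 326 in NC (-0.74, SE 0.05, adjusted p = 4.83e-18). On the molecule scale BIRC5 was 0.14 and so changed sign.

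CENPF stood at 325 and 323 CPM in KO and 271 and 273 in NC, which was higher in KO (log2 change 0.25, SE 0.04, adjusted p = 1.70e-06), against its fall at steady state. AURKB stood at 49.9 and 51.1 in KO and 39.8 and 38.8 in NC and was higher again, by less (0.36, SE 0.09, adjusted p = 0.000476). MKI67 stood at 578 and 581 in KO and 486 and 467 in NC (0.28, SE 0.05, adjusted p = 3.92e-05). CDK1 stood at 139 and 133 in KO and 170 and 172 in NC (-0.33, SE 0.05, adjusted p = 7.17e-07), but it was 0.11 with ribosomal protein scaling and 0.56 on the molecule scale. CCNA2 (-0.13, adjusted p = 0.0827), CCNB1 (-0.10, adjusted p = 0.0832) and TOP2A (-0.08, adjusted p = 0.0915) did not pass, and all 3 took a positive sign under both other scalings. Against listed exon length, the 0 h change had a rho of 0.14 over members and 0.06 over all genes.

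Members were thus called in both sets in different combinations. Of the 19 higher at steady state, 8 were higher and 5 lower at 0 h, and of the 7 lower at steady state, 5 were higher and 1 lower. In total, 10 members had opposite calls, beside 22.8% of the 14137 genes tested in both sets. On the molecule scale, of the 5 that went from higher to lower only FOXM1 (-0.41) and PLK1 (-0.31) were still called lower, PRC1 (-0.08) and BIRC5 (0.14) were not called, and KIF20A (0.20) was called higher. The 2 groups did not overlap, in opposite directions, in 12 members, beside 29.7% of genes. Whether the 2 sets differ for any 1 gene was not tested, as their tables were made separately.

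**Figure D3:**
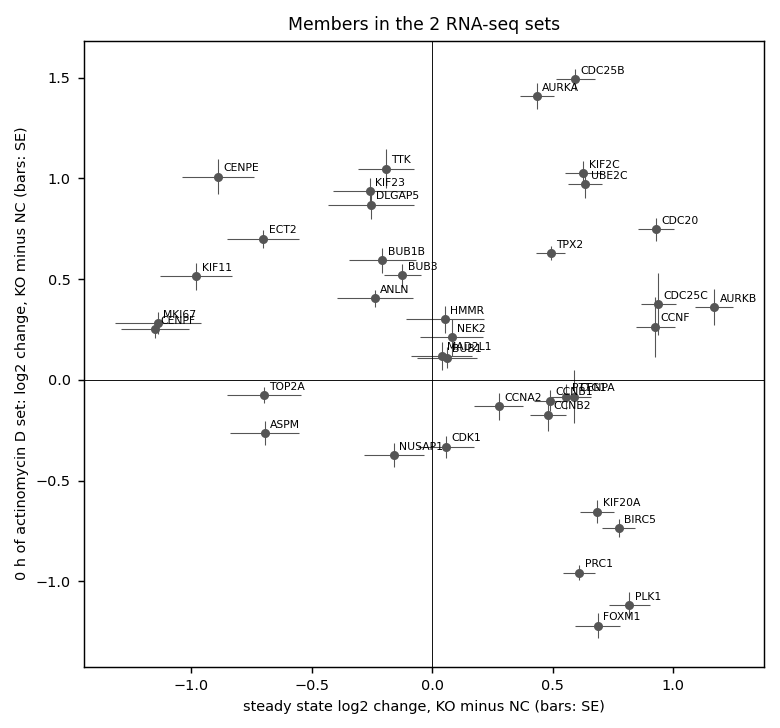
Each point is 1 member, with the steady-state log2 change (KO minus NC) on the horizontal axis, the 0 h change of the actinomycin D set on the vertical axis, and bars of 1 SE. Points fill all 4 quadrants, with FOXM1, PLK1, PRC1, BIRC5 and KIF20A at lower right and CENPE, ECT2, KIF11, MKI67 and CENPF at upper left.

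Some members differed in the same direction at all labelled times, in shares near or under those of all tested genes. In CDC20, CDC25B, BUB1B, KIF2C, TPX2, UBE2C, ECT2 and DLGAP5, all 10 libraries labelled KO lay above all 10 labelled NC, which is 8 of 38 members beside 19.4% of all tested genes. In CDK1, NUSAP1, PRC1 and FOXM1 all 10 lay below, which is 4 members beside 18.7%. The other 26 overlapped. Averaged over the 5 labelled times, 21 members were higher (41.6% of all tested genes) and 14 lower (also 41.6%). CDC25B was 1.44 (SE 0.02) and PLK1 -1.29 (SE 0.03). CENPF was 0.00 (SE 0.02, adjusted p = 0.935), as its KO libraries lay above NC at 3 labelled times and below at the other two.

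Per the labels, transcription was blocked in this set, and a transcript that decays fast should fall with labelled time relative to stable ones. A check of the labels comes first. A list of 16 short-lived transcripts was highest at KO 6 h and at NC 4 h for all 16 genes, with both libraries above the other 8 of their genotype. Their summed level was 2312 to 2320 CPM at KO 6 h against 324 to 456 in the other KO libraries, and 2503 to 2603 at NC 4 h against 272 to 369. At 0 h, where such transcripts should stand highest, their sum was 325 and 324 CPM in KO and 313 and 320 in NC. The labelled times 0 h, KO 6 h and NC 4 h thus go against the labels. Results below are given by labelled time, and counts of calls and ratios also without KO 6 h and NC 4 h.

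Members varied over labelled time, many but not all with their highest or lowest mean at KO 6 h and NC 4 h. A change over the 5 labelled times was called for 38 of 38 members in KO (55.9% of all tested genes) and 35 of 38 in NC (54.7%). The 3 not called in NC were CCNB1, CDC25C and BUB1B. Without the libraries at KO 6 h and NC 4 h the counts were 33 and 27, beside 41.8% and 39.3% of all genes tested. The ratio of the highest to the lowest mean over the times ran from 1.14 to 7.53 (median 1.53) in KO and from 1.08 to 4.75 (median 1.498) in NC. Without KO 6 h and NC 4 h it ran from 1.06 to 5.99 (median 1.42) and from 1.06 to 2.00 (median 1.27). Over all 5 times the largest in KO were PLK1 at 7.53 and CCNF at 6.65, and the largest in NC CCNF at 4.75 and AURKA at 3.41.

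**Figure D4:**
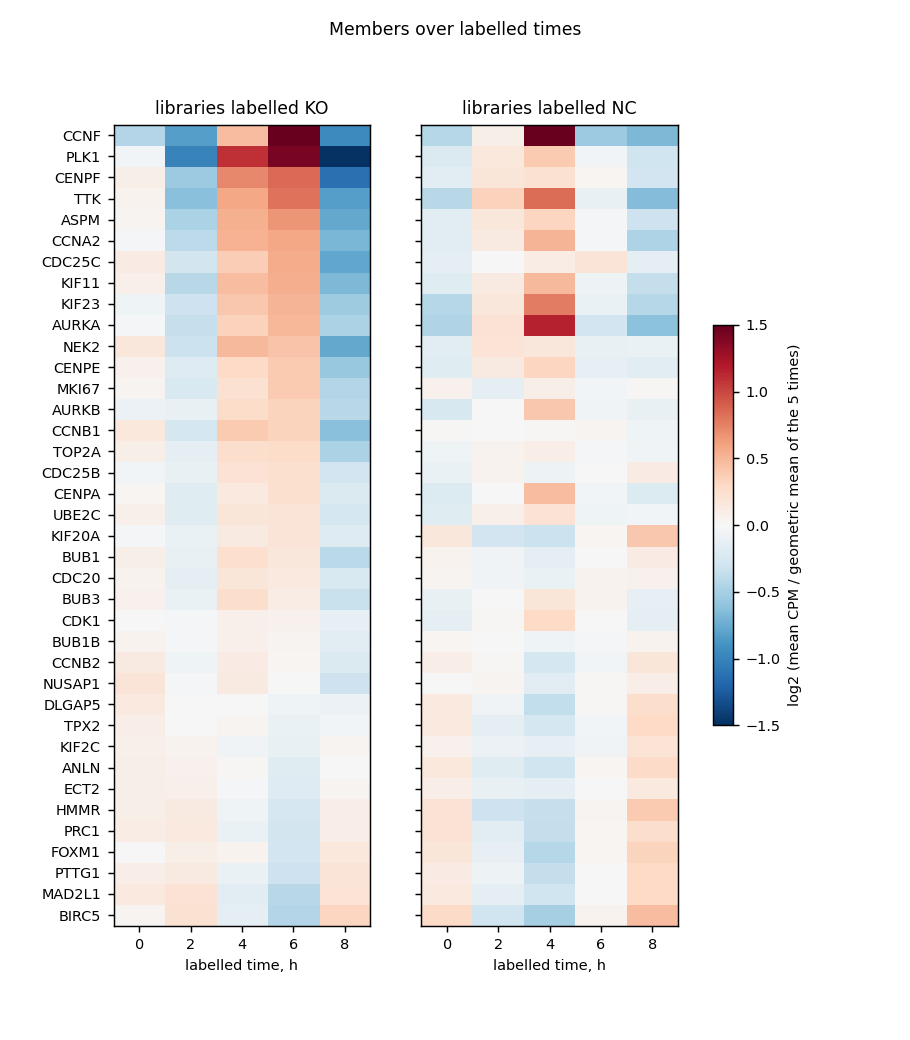
Rows are the 38 members and columns the labelled times in hours, for libraries labelled KO (left) and NC (right). Colour gives log2 of the mean CPM over the geometric mean of the 5 times, and members near the top, such as CCNF, PLK1 and TTK, are highest at KO 6 h and at NC 4 h while those at the foot, such as BIRC5 and MAD2L1, are lowest there.

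In 15 members the highest mean lay at KO 6 h and also at NC 4 h: CCNA2, CCNF, PLK1, AURKA, AURKB, TTK, CENPA, CENPE, CENPF, KIF11, KIF23, TOP2A, MKI67, UBE2C and ASPM. In 10 members the lowest mean lay at both: MAD2L1, KIF2C, TPX2, ANLN, BIRC5, PTTG1, HMMR, PRC1, ECT2 and FOXM1. The other 13 did neither. These are 15 and 10 of 38 members beside 22.6% and 26.5% of all tested genes. The low point was shared with ribosomal protein genes, of which 77 of 82 were lowest at both times and 0 highest. In KO, 28 of the 38 had their lowest mean at 8 h. In NC, 18 had their highest mean at 8 h and 17 at 4 h. The shares of all tested genes with these patterns were not counted. CPM is relative to the library total, so these counts do not measure decay.

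CCNF showed the rise most plainly. In KO its libraries stood at 14.3 and 15.6 CPM at 0 h, 9.35 and 13.4 at 2 h, 27.1 and 28.7 at 4 h, 67.1 and 71.5 at 6 h, and 9.33 and 11.5 at 8 h. In NC they stood at 13.3 and 11.5, 18.0 and 17.5, 49.4 and 50.3, 12.6 and 10.4, and 9.92 and 11.1 at the same times. Both genotypes thus had 1 labelled time far above the rest, at 6 h in KO and 4 h in NC. PLK1 in KO stood at 56.6 and 52.3, 27.7 and 28.7, 120 and 120, 148 and 154, and 20.2 and 19.9 CPM, in the same order of times. In NC it ranged over 104 to 186. Its KO libraries at 2 h and 8 h were the lowest of the 20.

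CENPF in KO stood at 325 and 323 CPM at 0 h, 217 and 203 at 2 h, 498 and 511 at 4 h, 543 and 553 at 6 h, and 140 and 141 at 8 h. In NC it stood at 271 and 273, 354 and 339, 364 and 353, 311 and 312, and 258 and 242. KO lay below NC at 2 h and 8 h and above it at 0, 4 and 6 h, with no overlap at any labelled time. AURKB varied less, from 39.0 to 67.9 CPM in KO and 38.8 to 62.4 in NC. Its KO libraries lay above NC at 0, 4 and 6 h, overlapped them at 2 h and lay below them at 8 h.

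BIRC5 ran the other way. In KO it stood at 191 and 190 CPM at 0 h, 218 and 216 at 2 h, 170 and 162 at 4 h, 133 and 138 at 6 h, and 230 and 230 at 8 h. In NC it stood at 307 and 326, 211 and 210, 187 and 181, 264 and 275, and 357 and 356. It was lowest where CCNF was highest in both genotypes. FOXM1 lay between 90.3 and 130 CPM in KO and between 169 and 317 in NC, and every KO library lay below every NC library.

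**Figure D5:**
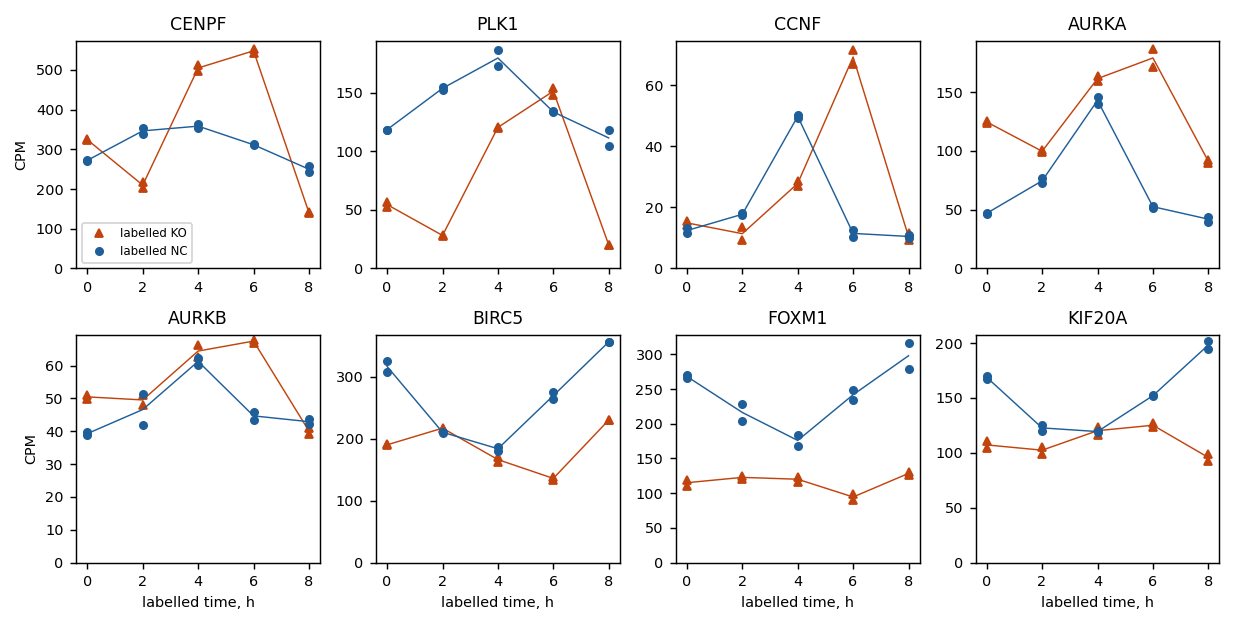
Each panel shows 1 member, with CPM on the vertical axis from 0 and labelled time in hours on the horizontal axis (triangles libraries labelled KO, circles libraries labelled NC, lines through the mean of 2). CCNF, AURKA and AURKB peak at NC 4 h, PLK1, CCNF and CENPF at KO 6 h, and BIRC5 is lowest at those times.

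A straight line over labelled time, the usual measure of decay, gave no difference between the genotypes for any member. Slopes were -0.05 to 0.19 log2 per hour in KO and -0.06 to 0.04 in NC. The difference in slope was called higher for 0 of 38 members and lower for 0, by edgeR's quasi-likelihood test (0% of all 17715 genes in each direction). At an unadjusted p under 0.05 it counted 529 genes and 1 member. DESeq2 called 6 genes and 0 members, with 1 member at an unadjusted p under 0.05. On the molecule scale 0 members were called, and also without KO 6 h and NC 4 h. Since levels did not follow the labelled hours in a line, these slopes do not describe a half-life.

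Other mitotic genes at 0 h were higher for 27 and lower for 27 of 79, with a median of 0.03, close to the 35.5% and 31.6% of all tested genes. The largest rises were NDC80 (1.63, SE 0.10) and SGO2 (1.58, SE 0.08), both of the kinetochore and centromere, and the largest falls PBK, a mitotic kinase (-1.53, SE 0.06), and TRIP13, which takes apart the checkpoint complex (-1.37, SE 0.06). G1/S genes went lower for 18 of 25 and higher for 5. In the same comparison ribosomal protein genes were lower for 70 of 82, and that moves with the scaling given above.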

How the data were processed

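RNA-seq tables of 6 steady-state and 20 actinomycin D libraries, all labelled PANC-1, were used. Each sample was grouped by its genotype, time and replicate labels. The submitters' processing notes name STAR, RSEM, Bowtie2, deepTools and hg19 with no roles or versions. Annotation and strand use: not given in the sources used here. For the steady state the authors deposited expected counts, transcript and effective lengths, TPM and FPKM, per the file headers. For the actinomycin D set they deposited counts, RPKM with its log2, RPM, and a signal named molecule with its log2, again per the file headers. The deposited log2 molecule values followed a straight line of the deposited log2 RPKM in each library (its origin: not given in the sources used here). Expected counts (10.2% not whole) were rounded, and 45 pseudoautosomal copies were added to their partners. Columns of no sample of this series numbered 0.

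Genes were tested in R 4.3.3 with edgeR 4.0.16 (filterByExpr, TMM, robust quasi-likelihood F test, Benjamini-Hochberg over all tested genes, 0.05). The 0 h contrast and the change over times came from 1 mean per genotype and time, and slopes from genotype, hours and their interaction. SE is the absolute log2 change over the square root of F. Alternatives used DESeq2 1.42.0 and limma 3.58.1. Scripts were tested on simulated data. Figures were made with matplotlib. Promoter sequences came from RefSeq, searched over 250 bases.

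Libraries of 1 group differed in counts by more than sampling noise (chi-square per degree of freedom steady state 3.81 to 42.8, actinomycin D 3.90 to 5.30), so all were kept. Members and gene lists were chosen with earlier results of these data known, and the grouping of members by role was made after their values were seen. Statistics per library are given for a fixed set of 9 members and, in each comparison, the 4 largest rises and 4 largest falls past 0.05. From the list of other mitotic genes, the 2 largest rises and falls are given. Alternatives concerned the tool, filter, replicate block, scaling, length and each library left out.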

Additional observations from a re-analysis of the deposited data

Results flagged for a closer look

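In 12 of 38 members the libraries labelled KO and NC lay apart in opposite directions in the 2 sets. Every KO library lay on 1 side of every NC library at steady state, and on the other side at 0 h. This difference was not tested. Of the genes tested in both sets 29.7% did the same, so it is not particular to the members. The opposite sign at 0 h was lost for CCNA2 and CCNB1 with ribosomal protein scaling and on the molecule scale, and for BIRC5 and KIF20A on the molecule scale. PLK1 was 0.82 at steady state and -1.12 at 0 h on the log2 scale, KO minus NC. FOXM1 was 0.69 and -1.22, PRC1 0.61 and -0.96, BIRC5 0.77 and -0.74, and KIF20A 0.69 and -0.65. CCNA2 was 0.28 and -0.13 and CCNB1 0.49 and -0.10, and these 2 did not pass at 0 h. In the other direction, CENPE was -0.89 and 1.01, ECT2 -0.70 and 0.70, KIF11 -0.98 and 0.51, MKI67 -1.14 and 0.28, and CENPF -1.15 and 0.25. In the actinomycin D libraries CDKN2A, KRT19 and KRT7 moved with the genotype labels too, and their part in these values was not tested.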

How the results depend on the processing

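At steady state 18 to 19 members were higher with each library left out in turn, and 7 to 14 lower. The 14 came without KO replicate 1. Over all tested genes those fits called 6725 to 10151, of which 2960 to 4989 were higher. Without a filter on low counts 10 members were lower, where 9118 of 31150 genes were called, 4030 of them higher. At 0 h, leaving out 1 library (the lone sample left in its group is assumed to vary like the other groups) gave 19 to 20 higher and 8 to 10 lower. The deposited molecule scale gave 34 higher and 2 lower, ribosomal protein scaling 5 lower, and the mean over the 5 labelled times, chosen after seeing the data, 14 lower. With ribosomal protein scaling and on the molecule scale, the sign turned for CCNA2 (0.31 and 0.76), CCNB1 (0.34 and 0.83), CDK1 (0.11 and 0.56) and TOP2A (0.37 and 0.86), and on the molecule scale alone for BIRC5 (0.14). The cause was not tested. Changes over labelled times were called for 35 to 38 members in KO and 34 to 36 in NC with a library left out. The rho with length was -0.56 to -0.53 without 1 library and -0.66 with listed exon length, chosen after seeing the data, as were the steady-state ribosomal protein scaling and the exon-length offsets. Protein length was not run. Same-numbered libraries deviated together by a correlation of 0.06, -0.01 and -0.11 at steady state, so no shared deviation was seen. Whether same-numbered libraries were made together is not given by the labels, and these correlations cannot show it. With the replicate block 19 members were higher and 7 lower at steady state, and 22 and 8 at 0 h. Over all tested genes 8705 of 17240 were called at steady state, 4047 of them higher, and 11827 of 17715 at 0 h, 6250 of them higher. With the block 38 and 35 members changed over times in KO and NC, beside 9814 and 9600 of all genes. Under it 0 slopes differed in each direction. Depth did not limit the filter: all 38 members passed it in both sets.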
